A study of Mus musculus with 22 samples.

Results

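The cadherins and protocadherins measured here were the 89 genes, of 22491 genes on the array, whose symbol in the platform annotation starts with Cdh or Pcdh followed by a digit or by the letter a, b or g. Genes named Cdhr were left out of the family. The 89 genes had 142 probes, and each gene was represented by the probe that was brightest on average, while the probes of Pcdh8 were also followed apart. The genes comprised 5 type I and 13 type II classical cadherins, 5 other Cdh genes, 4 delta1, 5 delta2 and 3 other non-clustered protocadherins, and 54 clustered protocadherins (12 alpha, 22 beta and 20 gamma). Of the 89 genes, 57 lie on chromosome 18, among them all 54 clustered ones.

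RNA of the dentate gyrus, the part of the hippocampus that holds the granule cells, was hybridised to Illumina MouseWG-6 arrays, 1 array for each of 22 adult male mice. KO mice (Srf f/f;CaMKCreERT2) lost serum response factor (SRF), a transcription factor of activity-induced genes, in excitatory forebrain neurons, where the CaMKIIα promoter drives the tamoxifen-dependent Cre, and their other cells kept the gene. CTR mice were Srf f/f littermates without the Cre, and both genotypes received tamoxifen in adulthood, weeks before the experiment. The 4 groups were KO mice 6 h after seizures evoked by kainic acid (KA; 35 to 50 mg/kg into the peritoneum; 5 mice), KO mice 6 h after saline (6 mice), CTR mice 6 h after KA seizures (5 mice) and CTR mice 6 h after saline (6 mice).

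Cadherins are adhesion proteins that sit in the cell membrane and bind their like on the neighbouring cell through calcium-dependent extracellular repeats. Classical cadherins hold to the actin skeleton through catenins and join the pre- and postsynaptic sides of synapses. Non-clustered protocadherins of the delta groups act in axon sorting, synapse formation and synapse removal. Clustered protocadherins give each neuron a surface identity, since each cell uses a few of the many genes of the alpha, beta and gamma families. Cell adhesion at synapses is remodelled after strong neuronal activity, and in the dentate gyrus the study asked which activity-induced genes depend on SRF.

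The targeted gene was lower in the arrays labelled KO. Srf, on a log2 scale, had 11.23 ± 0.199 in KO KA arrays and 11.41 ± 0.17 in KO saline arrays, against 12.06 ± 0.199 in CTR KA arrays and 12.45 ± 0.12 in CTR saline arrays (SD; n = 5, 6, 5 and 6), and no KO array reached the lowest CTR array. The genotypes differed by −1.04 after saline (adjusted p = 1.3e-05 by limma). The sources used here do not say whether the probe reads the exon removed by Cre. In a second deposited table, 16 of 22 columns held the values of another sample than their name says, 14 of them of another group, so its values were not used. Signals ran between 6.69 and 16.12, with a median of 7.88, and 55 of the 89 genes had a mean above the median of all probes. No detection p was given, so a dim gene cannot be told from background. Of 6 granule cell markers measured, Prox1 and Tdo2 rose and C1ql2 and Dsp fell after KA in CTR mice, and none was called in KO mice. The mean of 2 choroid plexus markers ran between 10.06 and 14.2 in KO KA arrays and 10.9 and 14.28 in KO saline arrays, against 10.33 to 14.09 in CTR KA arrays and 11.58 to 13.05 in CTR saline arrays. Of 4 astrocyte markers, Gfap alone was called after KA, and it rose in both genotypes. Of 5 interneuron markers, Gad1 and Sst rose in CTR mice, while Slc32a1 (0.05), Pvalb (0.08) and Gad2 (0.02) were not called. Gad2 (mean 7.23) and the granule cell marker Calb1 (mean 7.31) were dim, below the median of 7.88. Of 3 microglia markers, Aif1 and Cx3cr1 fell in CTR mice, and Csf1r (−0.1) was not called. Oligodendrocyte markers were not called. Pyramidal cell markers were likewise present, and of the 4 measured Fibcd1 rose after KA in KO mice and none in CTR mice. After KA, Fibcd1 (1.12), C1ql2 (1.07) and Dsp (2.41) were higher and Tdo2 (−1.47) was lower in KO than in CTR mice. The other granule and pyramidal cell markers were not called there, where 2.6% of all genes were higher and 3.71% lower. The interaction was called for C1ql2, Dsp and Tdo2, beside 1.21% of all genes above 0 and 1.7% below 0. The part of these cells in the results below was not tested. In tissue RNA, fewer cells of a type and less RNA per cell cannot be told apart.

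Promoter windows were at hand in the RefSeq table (GRCm38.p6) for 22 of the 89 genes, and those of the pair of delta2 genes that rose most, Pcdh8 and Pcdh10, and of the pair of genes that fell most, Pcdh19 and Cdh8, are shown because the results below turn on these 4 genes. Each runs from 250 bases before to 50 bases after the start, 5′ to 3′ on the gene's strand, at chr14:79771263-79771562 (minus strand) for Pcdh8, chr3:45378148-45378447 (plus strand) for Pcdh10, chrX:133688944-133689243 (minus strand) for Pcdh19 and chr8:99416422-99416721 (minus strand) for Cdh8. Capitals mark TGACG, the core of the cAMP response element (CRE), and CCAAT, on either strand.
Pcdh8: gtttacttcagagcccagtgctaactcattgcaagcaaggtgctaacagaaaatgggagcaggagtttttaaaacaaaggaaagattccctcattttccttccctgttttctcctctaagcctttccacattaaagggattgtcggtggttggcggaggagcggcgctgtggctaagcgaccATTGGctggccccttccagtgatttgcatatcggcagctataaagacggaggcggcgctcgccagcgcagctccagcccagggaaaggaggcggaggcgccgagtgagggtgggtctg
Pcdh10: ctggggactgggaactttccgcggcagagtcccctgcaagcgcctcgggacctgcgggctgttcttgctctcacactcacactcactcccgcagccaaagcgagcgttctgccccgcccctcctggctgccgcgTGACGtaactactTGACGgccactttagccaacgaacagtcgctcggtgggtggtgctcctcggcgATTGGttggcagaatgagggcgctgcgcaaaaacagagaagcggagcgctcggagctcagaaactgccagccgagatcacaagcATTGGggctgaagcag
Pcdh19: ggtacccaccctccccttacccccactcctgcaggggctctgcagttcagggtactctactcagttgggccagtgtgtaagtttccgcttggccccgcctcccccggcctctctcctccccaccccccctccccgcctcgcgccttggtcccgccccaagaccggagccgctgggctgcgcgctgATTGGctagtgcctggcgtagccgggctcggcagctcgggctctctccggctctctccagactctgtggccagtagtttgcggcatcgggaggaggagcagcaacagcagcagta
Cdh8: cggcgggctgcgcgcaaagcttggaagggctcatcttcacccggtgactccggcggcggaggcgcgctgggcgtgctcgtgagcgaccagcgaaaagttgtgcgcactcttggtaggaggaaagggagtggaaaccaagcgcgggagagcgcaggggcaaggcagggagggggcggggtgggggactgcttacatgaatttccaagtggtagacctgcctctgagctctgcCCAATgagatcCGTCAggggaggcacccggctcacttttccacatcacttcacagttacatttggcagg
TGACG was found in 2 places in the Pcdh10 window and in 1 place in that of Cdh8, and in neither of the other windows. It was present in 20.8% of all 32851 windows of this length and in 3 of the 22 genes with a window (Cdh8, Pcdh9 and Pcdh10). CCAAT was in all 4 windows, in 15 of the 22 genes and in 37.4% of all windows. The full CRE (TGACGTCA, which contains TGACG; 1.79% of windows), the AP-1 site (TGANTCA; 7.81%) and the CArG box that SRF binds (1.63%) had no match in any of the 22 genes. A match or its absence describes the letters of this window alone.

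KA changed 17 of the 89 genes in CTR mice, 6 upward and 11 downward, called with limma at an adjusted p under 0.05 and a change of more than 1.5-fold. The 6 that rose were Pcdh8, Pcdh10, Cdh5, Pcdh17, Pcdh1 and Cdh22, all of them non-clustered. The 11 that fell were Pcdh19, Cdh8 and Cdh15 and 8 clustered genes of the alpha and beta families. Over all 22491 genes, 8.83% rose and 8.41% fell, so the share of cadherins and protocadherins that rose (6.74%) lay below the background and the share that fell (12.4%) above it. Among genes with a mean signal above the median of all probes, 14.4% rose and 14% fell, against 6 and 11 of the 55 family members above that level. The median log2 difference was −0.05 over the 89 genes and −0.01 over all genes. In KO mice 6 of the 89 genes changed, with Pcdh8 and Cdh22 higher and Pcdh19, Cdh8, Cdh15 and Cdh13 lower, against 4.17% and 4.21% of all genes higher and lower. After saline, limma called 0 of the 89 genes between KO and CTR mice, where 0.00445% of all genes were called, and 3 of the 89 had an unadjusted p under 0.05, as had 2.17% of all genes. After KA, Pcdh8, Pcdh10 and Cdh5 were lower in KO than in CTR mice and 0 genes were higher, while 2.6% of all genes were higher and 3.71% lower (585 and 834 genes). At an unadjusted p under 0.05 there were 8 higher and 15 lower members, and 23.6% of all genes in either direction. A normexp background correction of the same values was chosen after seeing the data. For KO against CTR after KA it called 869 genes higher and 824 lower, with 2 members higher and 3 lower. For KA in KO mice it gave 2 higher and 7 lower members, beside 1026 higher and 1318 lower over all genes. Without the correction, 938 of all genes were higher and 947 lower after KA in KO mice. Comparisons that use the same arrays are not independent of each other. The interaction, which tests whether the KA change differs between the genotypes, was called at an adjusted p under 0.01 for Pcdh10 alone, with 1.7% of all genes called below 0, 1.21% above 0, and 0 of the 89 genes called above 0. At an unadjusted p under 0.05 there were 4 members above and 9 below 0, and 17.5% of all genes in either direction.

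Pcdh8, also known as arcadlin, is a delta2 protocadherin that in rat neurons is induced by activity and draws N-cadherin from the synaptic membrane. Its brightest probe (ILMN_1236119) had log2 signals of 11.12, 10.68, 11.13, 10.25 and 11.22 in KO KA arrays, and 8.38 to 8.97 with a median of 8.79 in KO saline arrays. In CTR mice the KA arrays had 12.87, 11.9, 11.56, 12.17 and 11.72, and the saline arrays 8.4 to 9.01 with a median of 8.58. Every KA array lay above every saline array in both genotypes, and every CTR KA array lay above every KO KA array. KA raised Pcdh8 4.5-fold in KO mice (log2 difference 2.17, SE 0.198, adjusted p = 5.2e-08 by limma) and 10.5-fold in CTR mice (3.39, SE 0.198, adjusted p = 9.8e-12 by limma). The level after KA was 2.24-fold lower in KO than in CTR mice (−1.17, SE 0.207, adjusted p = 4.4e-04 by limma), and after saline the genotypes differed by 0.06 (SE 0.189). Exact two-sided permutation tests over the arrays gave p = 0.00216 for KA in each genotype and p = 0.00794 for KO against CTR after KA, each the smallest that these group sizes allow, and p = 0.693 after saline. Over these 4 tests the Benjamini-Hochberg adjusted exact p was 0.00432, 0.00432, 0.0106 and 0.693. Where groups do not overlap the exact p takes its smallest value, so those tests add nothing to the overlap given above.

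The other Pcdh8 probes moved the same way. Probe ILMN_1233633 had 10.8, 10.36, 10.83, 9.83 and 10.92 in KO KA arrays and 8.2 to 8.66 in KO saline arrays, against 12.31, 11.74, 12.11, 11.96 and 11.71 in CTR KA arrays and 8.34 to 8.59 in CTR saline arrays. The KA change was 2.16 in KO mice and 3.51 in CTR mice, and its difference of −1.35 (SE 0.212) passed the interaction threshold (adjusted p = 3.8e-04 by limma). The dimmest probe (ILMN_1256415) changed by 1.02 in KO mice and 2.01 in CTR mice (SE 0.194 each). The interaction of the brightest probe, −1.22 (SE 0.28, adjusted p = 0.011 by limma), and that of the dimmest, −0.99 (adjusted p = 0.04 by limma), did not pass the threshold. That of the brightest passed when CTR saline replicate 6 (−1.29), CTR KA replicate 3 (−1.34), CTR KA replicate 5 (−1.3) or KO KA replicate 5 (−1.31) was left out.

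**Figure D1:**
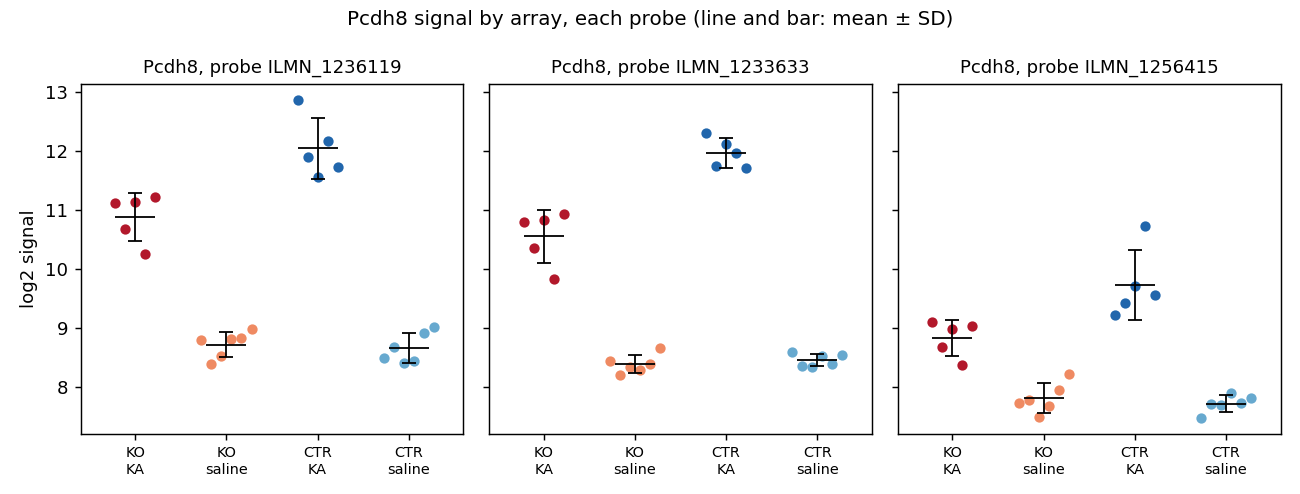
Pcdh8 log2 signal (vertical axis) in each array of the KO KA, KO saline, CTR KA and CTR saline groups (horizontal axis), 1 panel per probe, with points for arrays and lines for mean ± SD. In each probe both KA groups lie above their saline groups, and the KO KA arrays lie below the CTR KA arrays.

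Of the other delta2 protocadherins, Pcdh10, which binds regulators of actin branching and takes part in synapse removal in mouse neurons, had 9.32, 9.25, 9.46, 9.28 and 8.97 in KO KA arrays and 9.13 to 9.43 (median 9.2) in KO saline arrays. The CTR KA arrays had 10.43, 10.15, 10.4, 10.07 and 10.47, and the CTR saline arrays 9.08 to 9.56 (median 9.19). The 5 CTR KA arrays stood above all other arrays, while the remaining groups overlapped. KA raised Pcdh10 2.06-fold in CTR mice (log2 difference 1.05, SE 0.0982, adjusted p = 1.8e-08 by limma), and in KO mice the change was 0.03 (SE 0.0982, adjusted p = 0.91 by limma). After KA all 3 probes of Pcdh10 were lower in KO than in CTR mice, the brightest with a log2 difference of −1.05 (SE 0.103, adjusted p = 3.5e-07 by limma). The difference between the KA changes was −1.01 (SE 0.139, adjusted p = 9.3e-05 by limma), the single interaction call among the 89 genes. Its next probe (ILMN_1228833) rose by 0.84 in CTR mice, with 0.09 in KO mice. The dimmest (ILMN_2727239) had a change of 0.32 in CTR mice that was not called, and neither passed the interaction threshold. In both of these probes the CTR groups overlapped. ILMN_1228833 had 10.41, 9.54, 10.71, 9.24 and 10.6 in CTR KA arrays against 9.01 to 9.46 in CTR saline arrays. ILMN_2727239 had 8.88 to 9.46 against 8.69 to 9.16.

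Pcdh17, a delta2 protocadherin that groups synaptic vesicles in basal ganglia circuits of the mouse, had 13.26, 13.12, 13.67, 12.81 and 13.33 in KO KA arrays and 12.46 to 13.31 (median 12.99) in KO saline arrays. In CTR mice the KA arrays had 13.96, 12.74, 14.43, 13.01 and 14.28, and the saline arrays 12.75 to 13.16 (median 12.92). CTR KA replicates 1, 3 and 5 were high and replicates 2 and 4 lay no higher than the highest saline array. The change in CTR mice was 0.75 (SE 0.233, adjusted p = 0.019 by limma), and it was no longer called without CTR KA replicate 3 (0.57) or replicate 5 (0.6). In KO mice the change was 0.28 (adjusted p = 0.57 by limma). Without CTR KA replicate 2 the gene was also called lower in KO than in CTR mice after KA (−0.69).

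Pcdh19, whose human counterpart on the X chromosome is a gene of epilepsy in girls and women, fell in both genotypes. It had 9.02, 9.02, 8.55, 8.99 and 8.82 in KO KA arrays and 10.22 to 10.66 (median 10.37) in KO saline arrays, against 9.86, 9.2, 8.88, 9.12 and 9.62 in CTR KA arrays and 10.28 to 10.81 (median 10.48) in CTR saline arrays. No KA array reached the saline arrays of its genotype. The fall was 2.89-fold in KO mice (−1.53, SE 0.141, adjusted p = 5.6e-08 by limma) and 2.26-fold in CTR mice (−1.18, SE 0.141, adjusted p = 6.4e-07 by limma), and its difference between the genotypes of −0.35 (SE 0.199) did not pass the test (adjusted p = 0.45 by limma). A dim probe of the gene (ILMN_2694311, mean 7.73) had changes of 0.04 in KO mice and −0.08 in CTR mice. Pcdh18, the remaining delta2 gene, was not called in any comparison.

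Among delta1 protocadherins, by the brightest probe of each gene, Pcdh1 alone was called. It had 9.67, 9.53, 9.68, 9.06 and 9.33 in KO KA arrays and 8.83 to 9.34 (median 9) in KO saline arrays, against 10.14, 9.61, 9.55, 9.58 and 10.19 in CTR KA arrays and 8.91 to 9.3 (median 9.09) in CTR saline arrays. The groups overlapped in KO mice and did not in CTR mice. The change was 0.71 in CTR mice (SE 0.132, adjusted p = 1.9e-04 by limma) and 0.43 in KO mice (adjusted p = 0.031 by limma), where it stayed below 1.5-fold and was not called. The second probe (ILMN_2597660) had 0.24 in KO mice and 0.41 in CTR mice, was not called and overlapped in both, and with the probes averaged the call in CTR mice was lost (0.56). Pcdh7 had 0.06 in KO mice and 0.34 in CTR mice (adjusted p = 0.08 by limma in CTR mice).

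Pcdh9, another delta1 gene, gave different answers by probe. Its brightest probe (ILMN_1231837, mean 13) was not called, with −0.23 in KO mice and 0.14 in CTR mice. The dimmer probe ILMN_3028837 (mean 9.01) rose by 0.86 in CTR mice, with −0.05 in KO mice, and its interaction of −0.91 passed the threshold (adjusted p = 0.0095 by limma). Probe ILMN_1260006 rose by 0.75 in CTR mice, with 0.15 in KO mice, and ILMN_1243310 had 0.02 in KO mice and 0.08 in CTR mice. After KA, 3 of the 5 probes were lower in KO than in CTR mice, by 0.63 to 1.17 on the log2 scale. Positions of the probes on the transcripts are not given in the sources used here.

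**Figure D2:**
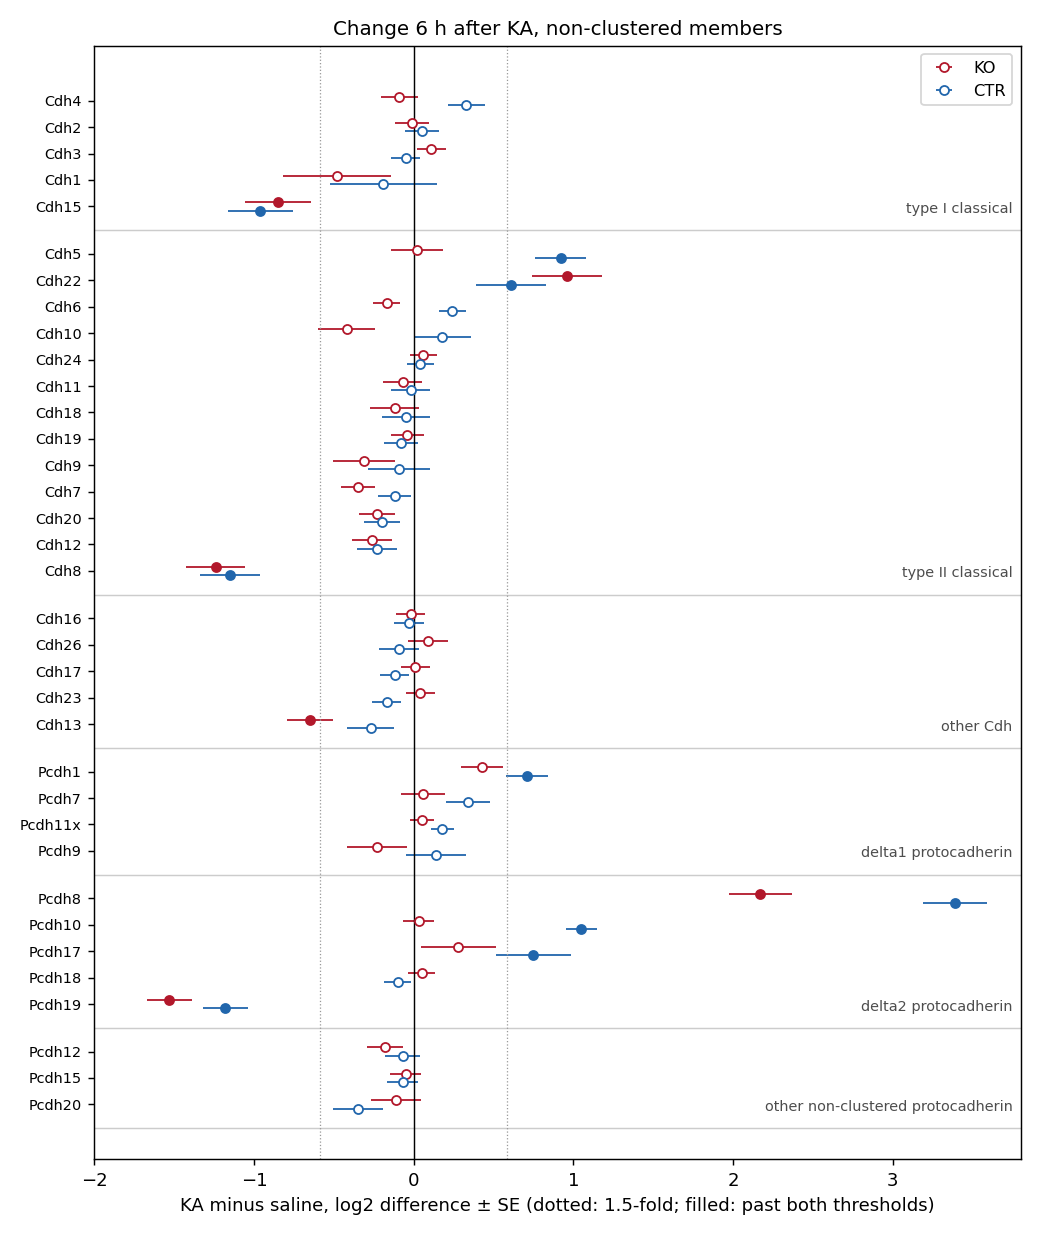
Change 6 h after KA (KA minus saline, log2 difference ± SE, horizontal axis) of the 35 non-clustered genes in KO mice and CTR mice, grouped by subfamily, with filled points past both thresholds and dotted lines at 1.5-fold. Pcdh8 lies farthest right in both genotypes (2.17 and 3.39), Pcdh10 and Cdh5 are filled in CTR mice alone, and Pcdh19 and Cdh8 lie farthest left in both.

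Of the 18 classical cadherins, Cdh5 and Cdh22 rose and Cdh8 and Cdh15 fell in CTR mice. Cdh8, a type II cadherin of neurons that helps match synaptic partners, had 8.92, 8.93, 8.98, 9.05 and 8.82 in KO KA arrays and 9.96 to 10.29 (median 10.28) in KO saline arrays. CTR KA arrays had 9.01, 8.59, 9.93, 9.96 and 8.72, and CTR saline arrays 10.23 to 10.59 (median 10.39). All KA arrays lay below all saline arrays of their genotype, and CTR KA replicates 3 and 4 stood about 1 log2 unit above the other CTR KA arrays. The fall was 2.36-fold in KO mice (−1.24, SE 0.186, adjusted p = 4.5e-05 by limma) and 2.22-fold in CTR mice (−1.15, SE 0.186, adjusted p = 3.7e-05 by limma). Of its 6 probes, 4 fell past the thresholds in KO mice and 3 in CTR mice. Probes ILMN_3163448 and ILMN_1254818 were also lower in KO than in CTR mice after KA (−0.66 and −0.74), where the brightest had −0.3 and was not called. With all 6 probes averaged, the call of Cdh8 in CTR mice was lost (−0.51).

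Cdh15, the M-cadherin of muscle, had 8.02, 8.4, 8.03, 7.98 and 8.62 in KO KA arrays and 8.8 to 9.5 (median 8.99) in KO saline arrays. It had 7.84, 7.96, 7.58, 7.48 and 7.79 in CTR KA arrays and 7.64 to 9.38 (median 8.82) in CTR saline arrays. A single low CTR saline array, replicate 4 with 7.64, overlapped with the KA arrays. The changes were −0.85 in KO mice (SE 0.205, adjusted p = 0.0053 by limma) and −0.96 in CTR mice (adjusted p = 8.0e-04 by limma). Cdh22, a type II cadherin of brain, had 9.75, 9.86, 9.5, 9.68 and 8.94 in KO KA arrays and 8.28 to 9.18 in KO saline arrays. In CTR mice it had 9.56, 9.69, 8.84, 9.54 and 8.42 after KA and 8.02 to 8.87 after saline, and the groups overlapped in both genotypes. It rose by 0.96 in KO mice (SE 0.218, adjusted p = 0.0034 by limma) and by 0.61 in CTR mice (adjusted p = 0.044 by limma). The call in CTR mice was lost, with values of 0.49 to 0.63, without any one of CTR KA replicates 1, 2 and 4, CTR saline replicates 1, 2, 4 and 6, KO KA replicate 3, and KO saline replicates 1 and 6.

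Cdh5, the VE-cadherin that seals the junctions of endothelial cells, had 9.78, 9.46, 9.45, 9.78 and 9.07 in KO KA arrays and 9.18 to 9.85 (median 9.45) in KO saline arrays. CTR KA arrays had 10.31, 10.68, 10.38, 10.43 and 10.55, and CTR saline arrays 9.17 to 10.13 (median 9.44). As for Pcdh10, the CTR KA arrays stood above all other arrays. KA raised Cdh5 1.89-fold in CTR mice (0.92, SE 0.162, adjusted p = 1.1e-04 by limma), with 0.02 in KO mice (adjusted p = 0.97 by limma), and its level after KA was 1.95-fold lower in KO than in CTR mice (−0.97, SE 0.169, adjusted p = 3.9e-04 by limma). The second probe (ILMN_2866951) changed by −0.11 in KO mice and 0.92 in CTR mice. The interaction, −0.89 (SE 0.229, adjusted p = 0.024 by limma), did not pass the threshold of 0.01, and did so without CTR saline replicate 5 (−1.01). Of 4 other endothelial markers, Pecam1 rose (0.97), Tek fell (−1.07) and Cldn5 (−0.44) and Kdr (0) were not called in CTR mice, and none was called in KO mice. Pecam1 was also lower in KO than in CTR mice after KA (−0.7). The mean of the 4 markers ran between 9.39 and 10.06 in KO KA arrays and 9.69 and 10.12 in KO saline arrays, against 9.39 to 9.98 in CTR KA arrays and 9.51 to 10.13 in CTR saline arrays. Their part in the Cdh5 result was not tested. Pcdh12, a protocadherin of endothelial cells, was dim (mean 7.53) and not called.

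Cdh13, the T-cadherin that is anchored to the membrane by a lipid and lacks a cytoplasmic part, was called in KO mice. It had 10.25, 10.41, 10.16, 10.45 and 10.01 in KO KA arrays and 10.7 to 11.1 (median 10.91) in KO saline arrays, which did not overlap, against 11.03, 10.16, 10.41, 9.91 and 10.61 in CTR KA arrays and 10.47 to 10.96 (median 10.62) in CTR saline arrays. The change was −0.65 in KO mice (SE 0.146, adjusted p = 0.003 by limma) and −0.27 in CTR mice (adjusted p = 0.23 by limma), and the interaction of −0.38 (adjusted p = 0.42 by limma) did not pass the threshold. The second probe (ILMN_2423843) had −0.65 in KO mice and −0.42 in CTR mice (adjusted p = 0.0019 by limma in CTR mice, below 1.5-fold), and its groups overlapped in neither genotype. The third (ILMN_2659503) had −0.36 and 0.06, and with the probes averaged the call in KO mice was lost (−0.55).

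Several members best known in hippocampal neurons were not called. Cdh2, the N-cadherin of synaptic junctions, had changes of −0.01 in KO mice and 0.05 in CTR mice from its brightest probe (mean 8.22). A dimmer probe (ILMN_2605503) had 0.53 in KO mice (adjusted p = 0.0047 by limma) and 0.5 in CTR mice (adjusted p = 0.0036 by limma). Both changes of the dimmer probe stayed below 1.5-fold. Cdh9, which acts at the synapse of granule cells on CA3 neurons in mice, had −0.31 and −0.09 in KO and CTR mice, and Cdh10 had −0.42 and 0.18. Cdh10 passed the test of KO against CTR after KA (−0.63) without CTR KA replicate 1, where the full set gave −0.49. Its CTR KA arrays ran between 8.18 and 9.65 (median 8.37), against 8.1 to 8.37 in KO KA arrays. CTR KA replicates 3 (9.65) and 4 (8.99) were the high ones. Pcdh20, with the highest mean signal of the non-clustered genes (13.71), had −0.11 in KO mice and −0.35 in CTR mice, while its second probe (ILMN_1224947) fell by 0.65 in CTR mice. Cdh1, the E-cadherin of epithelia, was not called and spread widely within each group, for example 8.2 to 9.62 in KO KA arrays. Cdh23 and Pcdh15, the tip link proteins of hair cells, and Cdh26 had means of 7.97, 7.84 and 7.63, beside a median of all signals of 7.88, and were not called.

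**Figure D3:**
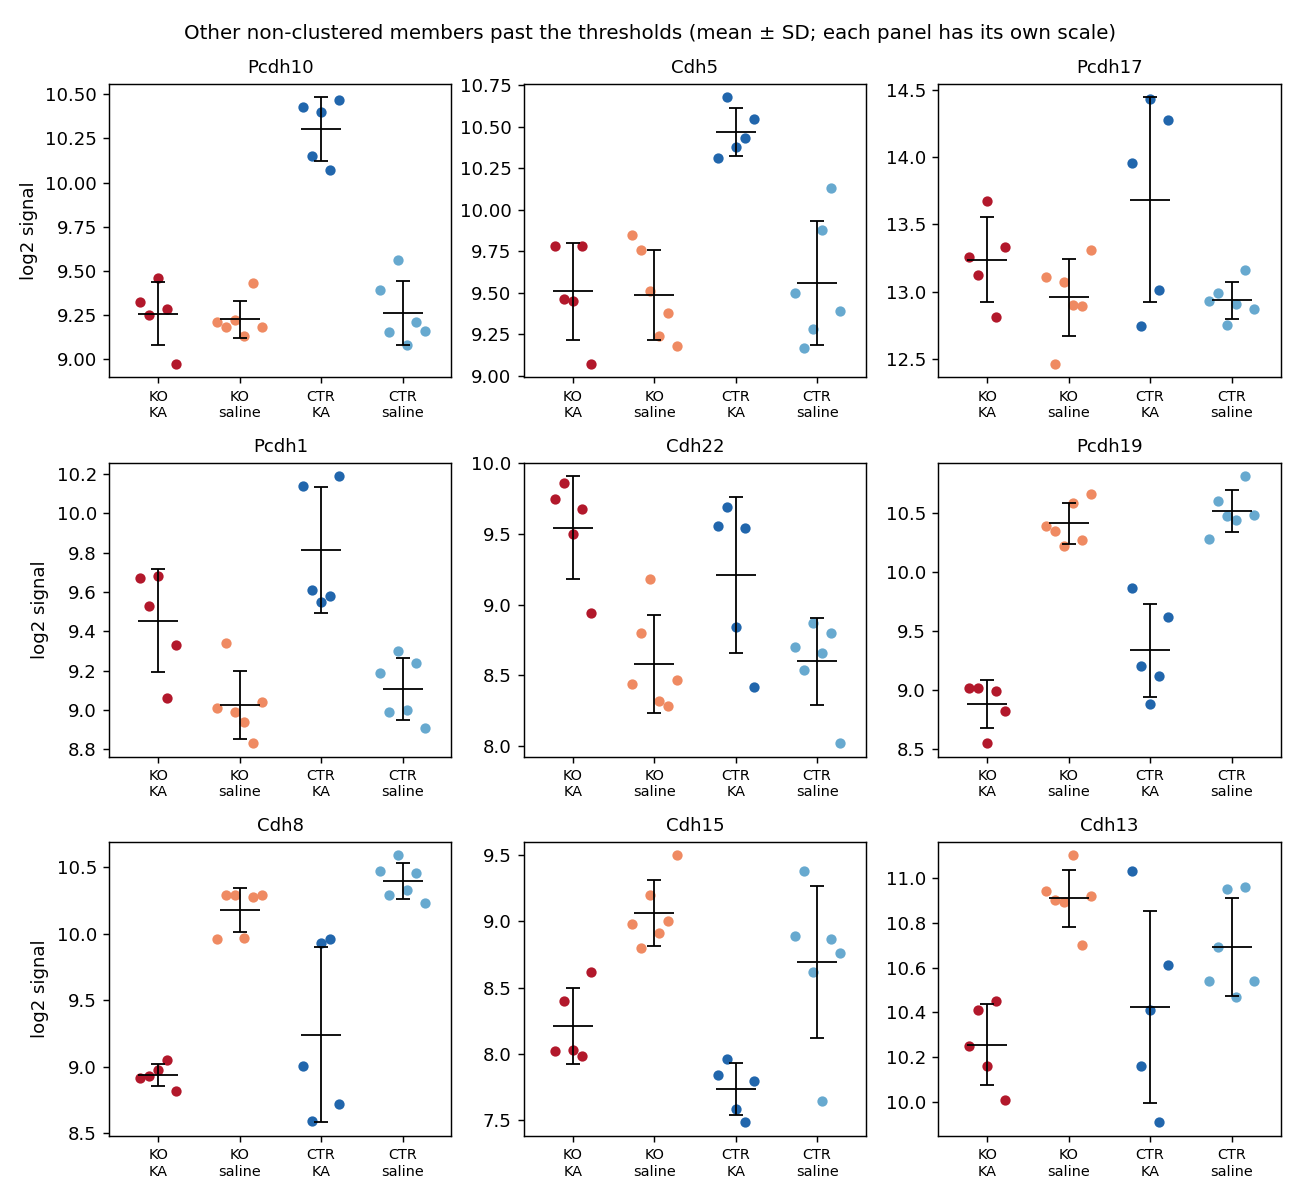
Log2 signal (vertical axis, 1 scale per panel) of 9 further non-clustered genes past the thresholds in each array of the KO KA, KO saline, CTR KA and CTR saline groups (horizontal axis), with lines for mean ± SD. Shown is the brightest probe of each gene. In Pcdh10 and Cdh5 the CTR KA arrays stand above all other arrays, and in Pcdh19 and Cdh8 each KA group lies below the saline group of its genotype.

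Of the 54 clustered protocadherins, 8 fell and none rose after KA in CTR mice, where 8.41% of all genes fell and 8.83% rose. Among genes above the median signal, as were 31 of the 54, 14% fell and 14.4% rose. Of 12 alpha genes, 3 fell (Pcdha7, Pcdha6 and Pcdhac1), and of 22 beta genes 5 fell (Pcdhb3, Pcdhb16, Pcdhb7, Pcdhb12 and Pcdhb17), while none of 20 gamma genes was called, and the difference between the families was not tested. The median log2 difference was −0.24 over the alpha genes, −0.24 over the beta genes and 0.09 over the gamma genes, beside −0.01 over all genes. The estimate was below 0 for 11 alpha and 21 beta genes, and above 0 for 17 gamma genes, most of which did not pass the test. In KO mice no clustered gene was called, with 12 of the 54 at an unadjusted p under 0.05, as were 28.6% of all genes, and with medians of −0.16, −0.09 and −0.04 over the alpha, beta and gamma genes. The mean over the beta genes ran between 8.05 and 8.29 in KO KA arrays and 8.23 and 8.38 in KO saline arrays, against 7.96 to 8.18 in CTR KA arrays and 8.29 to 8.44 in CTR saline arrays, so that the groups overlapped in KO mice and did not in CTR mice. The alpha genes gave 8.64 to 8.85 in KO KA arrays and 8.81 to 9 in KO saline arrays, against 8.48 to 8.7 in CTR KA arrays and 8.82 to 8.98 in CTR saline arrays. The gamma genes overlapped in both genotypes. Of the 20 gamma genes 7 had a mean signal above the median of all probes, against 9 of 12 alpha and 15 of 22 beta genes.

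**Figure D4:**
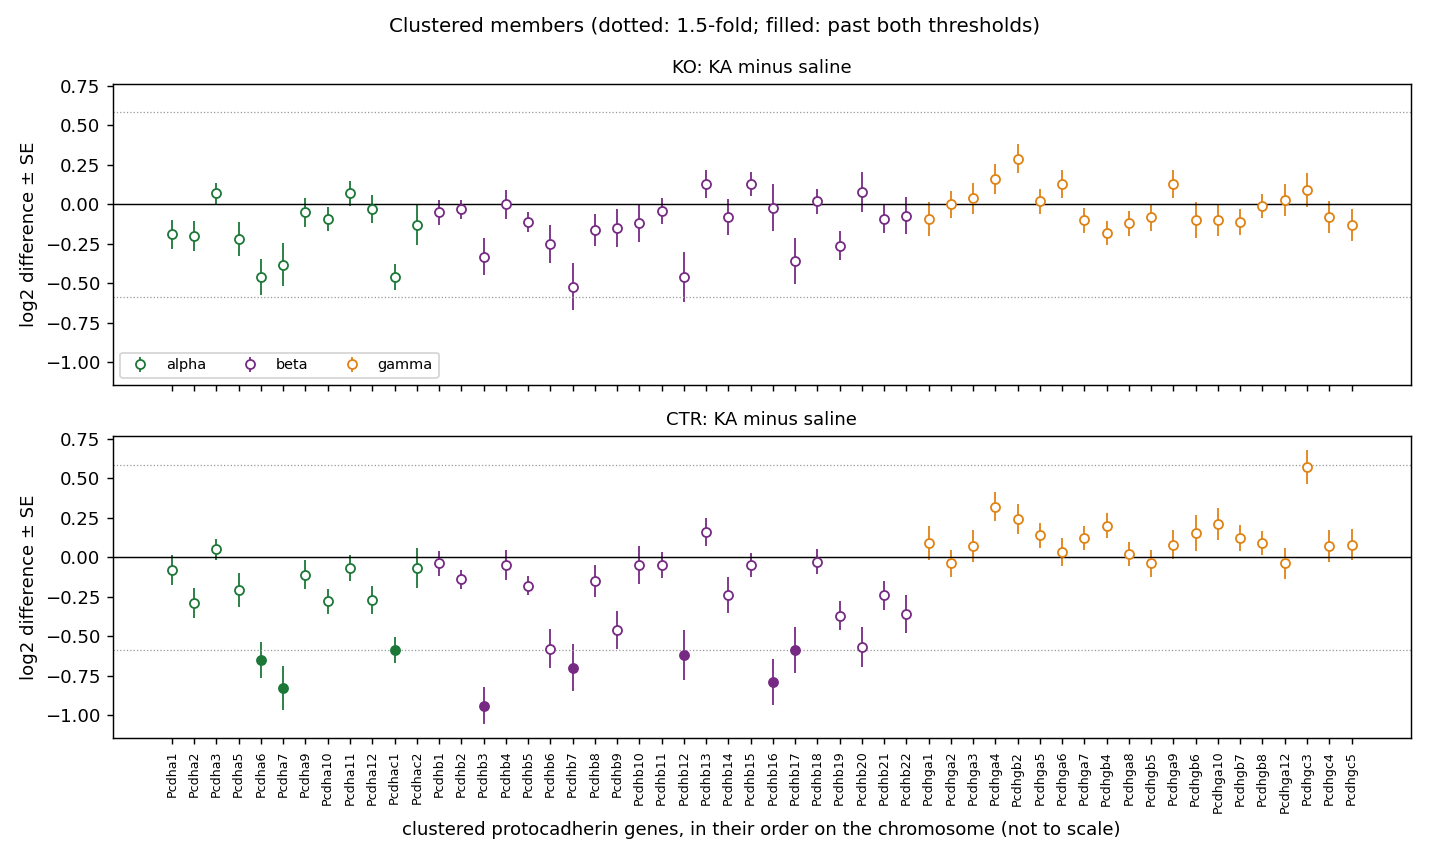
Change 6 h after KA (KA minus saline, log2 difference ± SE, vertical axis) of the 54 clustered genes in KO mice (upper panel) and CTR mice (lower panel), in their order on the chromosome without scale, with filled points past both thresholds and dotted lines at 1.5-fold. In CTR mice 8 alpha and beta genes are filled and lie below 0, and 17 of 20 gamma genes lie above 0 without passing the thresholds.

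By the brightest probe of each gene, Pcdhb3 had the largest fall among clustered genes in CTR mice. It had 9.51, 9.51, 9.15, 9.36 and 9.8 in KO KA arrays and 9.38 to 10.01 (median 9.85) in KO saline arrays, against 8.75, 8.88, 8.87, 9.21 and 9.24 in CTR KA arrays and 9.77 to 10.08 (median 9.93) in CTR saline arrays. The CTR groups lay apart and the KO groups overlapped. The change was −0.94 in CTR mice (SE 0.118, adjusted p = 1.4e-06 by limma) and −0.33 in KO mice (adjusted p = 0.066 by limma), and the interaction of 0.6 (SE 0.167) did not pass the threshold (adjusted p = 0.039 by limma).

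Pcdhb16 had 9, 8.84, 8.51, 8.57 and 8.22 in KO KA arrays and 8.34 to 8.97 (median 8.73) in KO saline arrays. It had 7.91, 8.12, 8.17, 8.5 and 7.75 in CTR KA arrays and 8.5 to 9.13 (median 8.89) in CTR saline arrays. The CTR groups touched at 8.5 and the KO groups overlapped. The change was −0.79 in CTR mice (SE 0.148, adjusted p = 2.2e-04 by limma) and −0.02 in KO mice, with an interaction of 0.77 (SE 0.21, adjusted p = 0.035 by limma). After KA the gene was higher in KO than in CTR mice by 0.54, below 1.5-fold, and passed both thresholds without CTR KA replicate 4 or KO KA replicate 5 (0.64 each).

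Pcdha7 had 12.97, 13.19, 12.77, 12.95 and 13.3 in KO KA arrays and 13.16 to 13.69 (median 13.38) in KO saline arrays. Its CTR KA arrays had 12.12, 12.61, 12.25, 12.81 and 12.99, and its CTR saline arrays 13.14 to 13.53 (median 13.4). The CTR groups lay apart. The change was −0.83 in CTR mice (SE 0.138, adjusted p = 5.2e-05 by limma) and −0.38 in KO mice (adjusted p = 0.073 by limma). Its second probe (ILMN_1215440) fell by 1.16 in CTR mice, changed by −0.4 in KO mice and was higher in KO than in CTR mice after KA (0.77). The brightest probe passed that test (0.59) without CTR KA replicate 5. The dimmer probe ILMN_2677651 had 8.42 to 8.77 in CTR KA arrays and 8.86 to 9.21 in CTR saline arrays, a fall below 1.5-fold. In the dimmest (ILMN_2689952) the CTR groups overlapped, with 7.69 to 8.13 after KA and 7.81 to 8.13 after saline.

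Pcdhb7 had 9.37, 8.96, 8.64, 9.25 and 9.47 in KO KA arrays and 9.5 to 10.05 (median 9.59) in KO saline arrays, against 9.28, 8.59, 8.83, 9.22 and 9.17 in CTR KA arrays and 9.48 to 10.02 (median 9.71) in CTR saline arrays. Neither pair of groups overlapped. The change was −0.52 in KO mice (adjusted p = 0.021 by limma), short of 1.5-fold, and −0.7 in CTR mice (SE 0.15, adjusted p = 8.4e-04 by limma). Without KO KA replicate 5 the change in KO mice was −0.6 and was called.

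The remaining clustered calls in CTR mice, Pcdha6, Pcdhb12, Pcdhb17 and Pcdhac1, had log2 differences between −0.65 and −0.59, with −0.46 to −0.36 in KO mice. In KO mice Pcdhac1 (adjusted p = 3.7e-04 by limma, with groups that did not overlap) and Pcdha6 (adjusted p = 0.0069 by limma) passed the p threshold and stayed below 1.5-fold. With its probes averaged, Pcdha6 lost its call in CTR mice (−0.33). Each call was lost without single CTR arrays. For Pcdha6 this was KA replicate 3 (−0.56), and for Pcdhb12 KA replicate 1, 2 or 3 or saline replicate 6 (−0.58 to −0.5). For Pcdhb17 it was KA replicate 1, 2 or 3 or saline replicate 1 or 2 (−0.58 to −0.5), and for Pcdhac1 KA replicate 3 or 4 or saline replicate 2 or 6 (−0.56 to −0.54). Among the brightest alpha and beta genes, Pcdhac2 had −0.13 in KO mice and −0.07 in CTR mice, and Pcdhb22 had −0.07 and −0.36, without being called. Of the gamma genes with the highest mean signals, Pcdhgb4 had −0.18 in KO mice and 0.2 in CTR mice, Pcdhga4 had 0.16 and 0.32, and Pcdhgc5 had −0.13 and 0.08. Pcdhgc3, named here after its values were seen, had 0.09 in KO mice and 0.57 in CTR mice (adjusted p = 2.3e-04 by limma in CTR mice), just under 1.5-fold. Alpha and gamma transcripts share constant exons within their family and the beta genes resemble each other, so that a probe may read more than 1 gene.

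**Figure D5:**
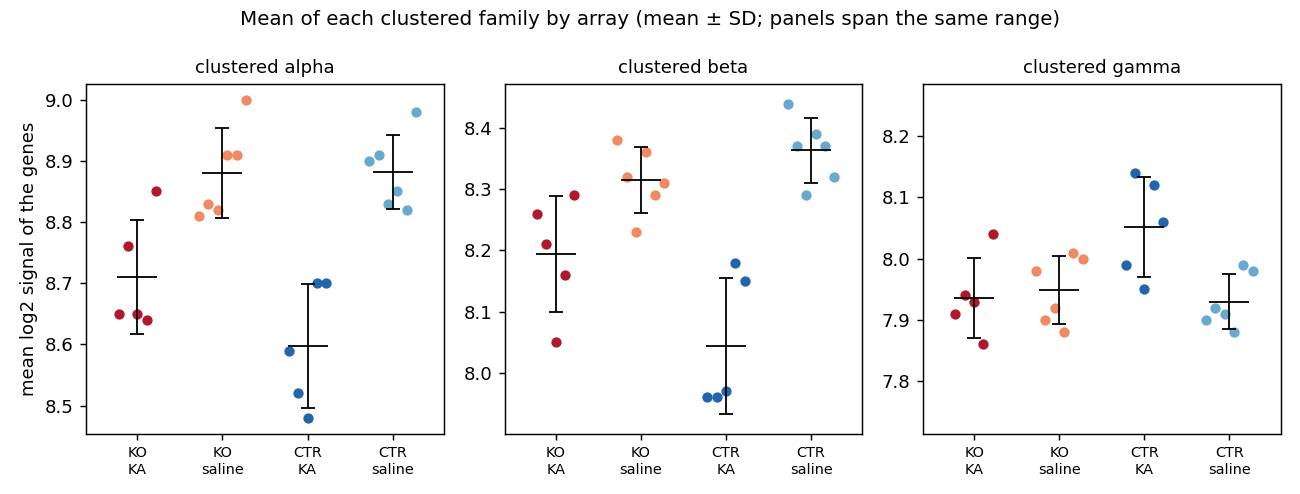
Mean log2 signal (vertical axis, panels spanning the same range) over the 12 alpha, 22 beta and 20 gamma genes in each array of the KO KA, KO saline, CTR KA and CTR saline groups (horizontal axis), with lines for mean ± SD. The CTR KA arrays lie below the CTR saline arrays for alpha (8.48 to 8.7 against 8.82 to 8.98) and beta genes (7.96 to 8.18 against 8.29 to 8.44), and the gamma groups overlap.

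The 89 genes had 53 probes beside their brightest. Of 17 such probes that belong to genes called after KA in CTR mice, 7 were called in the same direction. Another 9 had the same sign and 1 had the opposite sign, without being called. Of the 36 others, 2 rose (both of Pcdh9) and 1 fell (Pcdh20).

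Genes that work with cadherins were followed as lists. Over all genes, 8.83% rose and 8.41% fell after KA in CTR mice, and 4.17% rose and 4.21% fell in KO mice. After KA, 2.6% were higher and 3.71% lower in KO than in CTR mice. The interaction was called above 0 for 1.21% and below 0 for 1.7% of all genes. None of 11 catenins and junction partners was called after KA in either genotype, with a median log2 difference of −0.02 in KO mice and 0.16 in CTR mice. After KA, Vcl (vinculin; 11.5 in KO and 12.25 in CTR mice) and Afdn (afadin; 12.51 in KO and 13.15 in CTR mice) were lower in KO than in CTR mice, by 0.76 and 0.64 on the log2 scale. Of 20 other cadherin superfamily genes, 0 rose and 3 fell in KO mice and 2 rose and 4 fell in CTR mice. Clstn3, a calsyntenin of synapses, rose by 0.87 in CTR mice, with 0.24 in KO mice, and its interaction was called, as were those of Dsg2, a desmosomal cadherin that fell by 1.13 in CTR mice and had 0.33 in KO mice, and Fat3 (−0.14 in KO mice and 0.48 in CTR mice). Dsc1, a desmosomal cadherin, rose by 0.93 in CTR mice, with 0.15 in KO mice. After KA, Dsg2 was higher in KO than in CTR mice (1.25), and Clstn3 (−0.62) and Dsc1 (−0.77) were lower. Celsr2, Fat4 and Cdhr1 fell in both genotypes, with Cdhr1 at −1.63 in KO mice and −1.61 in CTR mice.

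Of 7 genes of cadherin cleavage, Ncstn, a subunit of γ-secretase, fell in CTR mice (−0.66), with −0.16 in KO mice, and the others were not called. Of 7 protocadherin effectors, 3 fell in CTR mice. They were Wasf1 (−0.61) and Cyfip2 (−0.63), both of the WAVE complex of actin branching, and Ptk2b (−1.21), a kinase of the focal adhesion family. The other WAVE complex genes measured, Nckap1 (−0.07), Abi1 (0.09), Abi2 (−0.29) and Brk1 (0.29), were not called in CTR mice. All 7 effectors lay above the median signal, where 14% of genes fell in CTR mice. In KO mice Ptk2b alone fell (−0.91), and Wasf1 and Cyfip2 had −0.15 and −0.07. Of 11 regulators of the clustered genes, Wapl, which takes cohesin off chromatin, rose in CTR mice (1.03), with 0.43 in KO mice, and was lower in KO than in CTR mice after KA (−0.69), while Ctcf, which binds the clustered promoters, had 0.24 in KO mice and 0.29 in CTR mice and was not called.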

How the data were processed

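Per the study's methods, the authors subtracted background, quantile-normalized and log2-transformed the signals of 22 arrays with the BeadArray R package. The deposited log2 values, 1 column per array for 46237 probes, were used as given. A second deposited table of intensity values on a linear scale was not used, because its column names and values disagree. Symbols came from the platform annotation, and promoters from RefSeq. A model with a mean for each of the 4 groups was fitted to all probes in limma 3.58.1 (R 4.3.3), and p-values were adjusted by Benjamini-Hochberg across the whole table. Calls needed an adjusted p under 0.05 and more than 1.5-fold, and for an interaction an adjusted p under 0.01 (18 residual degrees of freedom). The fit was tested on simulated data. The genes and lists were chosen with earlier results of these data known. Values by array are given for Pcdh8, for the 12 called genes with the largest KA change in CTR mice and for each interaction call, and other called genes are given by range, with the 3 genes of highest mean signal per subfamily and 11 genes known in hippocampal neurons or epilepsy. Cdh13 and Cdh22 were added by array after their values were seen. Alternatives covered the filter on dim probes, the arrays in the fit, array weights, the variance prior, the fold threshold, the probes per gene, the methods' two-way test, the replicate number as a block, and leaving out each array. The number of arrays limits the precision. Nothing in the sources used here ties replicate numbers to shared litters or days.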

Additional observations from a re-analysis of the deposited data

Results flagged for a closer look

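In 136 groups of arrays tested for a value far from the rest, 2 were found, and chance alone gives about 1 in 20. Cdh1 in KO KA replicate 4 had a log2 signal of 9.62, while the next array of the group had 8.25. The same array had the highest mean of the choroid plexus markers in its group (14.2) and of the meninges markers (11.35), and their part in the Cdh1 value was not tested. Pcdh10 in KO saline replicate 5 had 9.43, while the next array had 9.22, and this array stayed below every CTR KA array. By its brightest probe, the KA change of Pcdh10 differed between the genotypes by −1.01 (adjusted p = 9.3e-05 by limma). All 5 CTR KA arrays of this probe lay above all 6 CTR saline arrays, and its groups overlapped in KO mice. The other probes of the gene had overlapping CTR groups.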

How the results depend on the processing

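The number of called family members after KA in CTR mice was 17 in the results above and 14 to 19 with single arrays left out. It was 6 (6 to 7) after KA in KO mice, 3 (3 to 4) for KO against CTR after KA, 0 (0) for KO against CTR after saline and 1 (1 to 2) for the interaction, where a second gene was called without CTR saline replicate 5 or 6, CTR KA replicate 3 or 5, or KO KA replicate 5. With no fold threshold the counts were 30, 12 and 11 in the first 3 comparisons. The share of all genes under that rule is not given here, so these counts have no background beside them. At an unadjusted p under 0.05, 37.1%, 28.6% and 23.6% of all genes passed in these comparisons. The interaction count was 2 with probes above the median signal or with the intensity trend and robust prior, and 3 with array weights or with the mean over all probes. With the replicate number as a block it was 3, and Cdh22, Pcdhac1 and Pcdhb12 lost their calls in CTR mice. Same-numbered arrays had a median correlation of 0.112 (−0.272 to 0.367 over 31 pairs, 18 of them over 0.1). Between arrays of other numbers the median was −0.0063, with a wider range and 49 of 150 pairs over 0.1. The median was thus higher for same-numbered arrays, and whether they shared a day or litter was not tested. The main fit did not use the numbers to pair the mice. Normexp correction of the deposited signals, chosen after seeing the data, called 5 members for KO against CTR after KA. Averaging probes ended the calls of Cdh8 (−0.51), Pcdh1 (0.56) and Pcdha6 (−0.33) in CTR mice and of Cdh13 (−0.55) in KO mice. Fits on the compared arrays alone ended those of Cdh22 and Pcdh17 in CTR mice, and the two-way fit with Tukey's test that of Cdh22. No named gene reversed its direction. Alternatives that start from the second table, a detection p or a slide were not run, since its names disagree with its values and neither a detection p nor a slide is given there. The causes were not tested.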
